A study of Rattus norvegicus with 9 samples.

Results

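The ganglia of rats that had a sham operation were compared with those of naive rats. A dorsal root ganglion (DRG) is the cluster of sensory neuron cell bodies beside the spinal cord, with the satellite glia that wrap each cell body and the Schwann cells that ensheathe the axons. The comparison was chosen by treatment label alone and uses 6 of the 9 libraries of the series, 3 sham and 3 naive. All animals were male Sprague-Dawley rats, and bilateral ganglia of spinal levels T12 to L6 were taken at 30 days. Naive animals had no operation and sham animals had the operation without cord injury. The other 3 libraries came from rats with a spinal cord injury (SCI). They enter here through the low-count filter, the scaling and the shared estimate of spread, as a further set of levels and in a count of genes called against sham. No genotype, transgene or drug is named for any group.

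The labels do not say whether a library came from 1 animal or from a pool, so the p-values cover the spread between these libraries, which may in part be technical. Naive and sham libraries lay apart on the main axis of a principal component analysis of log2 CPM (counts scaled to library size), which held 65.7% of the variance, with scores of -34.2, -33.7 and -32.6 for naive and 32.5, 33.0 and 34.9 for sham. No batch is given in the labels. The operation and a batch that holds the naive libraries alone therefore cannot be told apart, and this bears on every difference that follows. Totals ran from 27534798 to 31816438 counts in naive and from 16724878 to 28026976 in sham. The sham libraries spread more widely than the naive ones, at 0.121 against 0.0457 for the root of the dispersion common to all genes, and sham 1 and sham 3 lay at opposite ends of the second component (14.8% of the variance, scores of -23.9 and 29.5). The same root was 0.0542 in SCI and 0.0805 over all groups. The fit shares the spread of each gene over all groups, SCI included. The p-values therefore make no allowance for the wider spread of sham.

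Markers of sensory ganglia were present in all 6 libraries. Prph, the intermediate filament of small sensory neurons, ran from 2336 to 3597 CPM, and the sensory transcription factors Isl1 and Pou4f1 from 52.8 to 69.2 and from 35.6 to 55.4 CPM. Avil, the sensory neuron protein advillin, ran from 808.0 to 1145 CPM and neuronal tubulin Tubb3 from 3027 to 4354. Pmp22, of peripheral myelin, ran from 3254 to 6664 CPM, and Fabp7, a marker of satellite glia, from 17.6 to 47.4.

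Sensory neurons of the ganglion carry touch, body position, temperature, itch and pain, and each class has its own set of ion channels, receptors and peptides. They keep long axons supplied by transport along microtubules, which asks much of protein synthesis, protein turnover and mitochondria. Ganglia also hold resident macrophages, blood vessels and a collagen-rich capsule, so that bulk RNA sums many cell types. In such RNA, fewer cells of a type and less RNA per cell cannot be told apart.

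Sham and naive ganglia differed in a large share of the genes tested. Of 16627 genes that passed the low-count filter, out of 30446 in the table, 8407 passed an adjusted p of 0.05 in edgeR's quasi-likelihood test (50.6%). Of these, 4102 were higher in sham (24.7%) and 4305 were lower (25.9%). The 3 sham and 3 naive libraries did not overlap in 56.7% of genes, 27.5% with sham higher and 29.2% with sham lower. Most differences were small. The median log2 change was 0.45 among genes that rose and -0.56 among those that fell, and 205 genes rose and 717 fell by more than 1 on the log2 scale. Each gene list below is read against the shares of 24.7% and 25.9%. Levels are CPM, given per library or as mean ± SD with n = 3 in each group, and changes are log2 changes of sham against naive from the edgeR fit with their standard error (SE). CPM are not scaled to gene length, so they compare libraries and not genes.

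**Figure D1:**
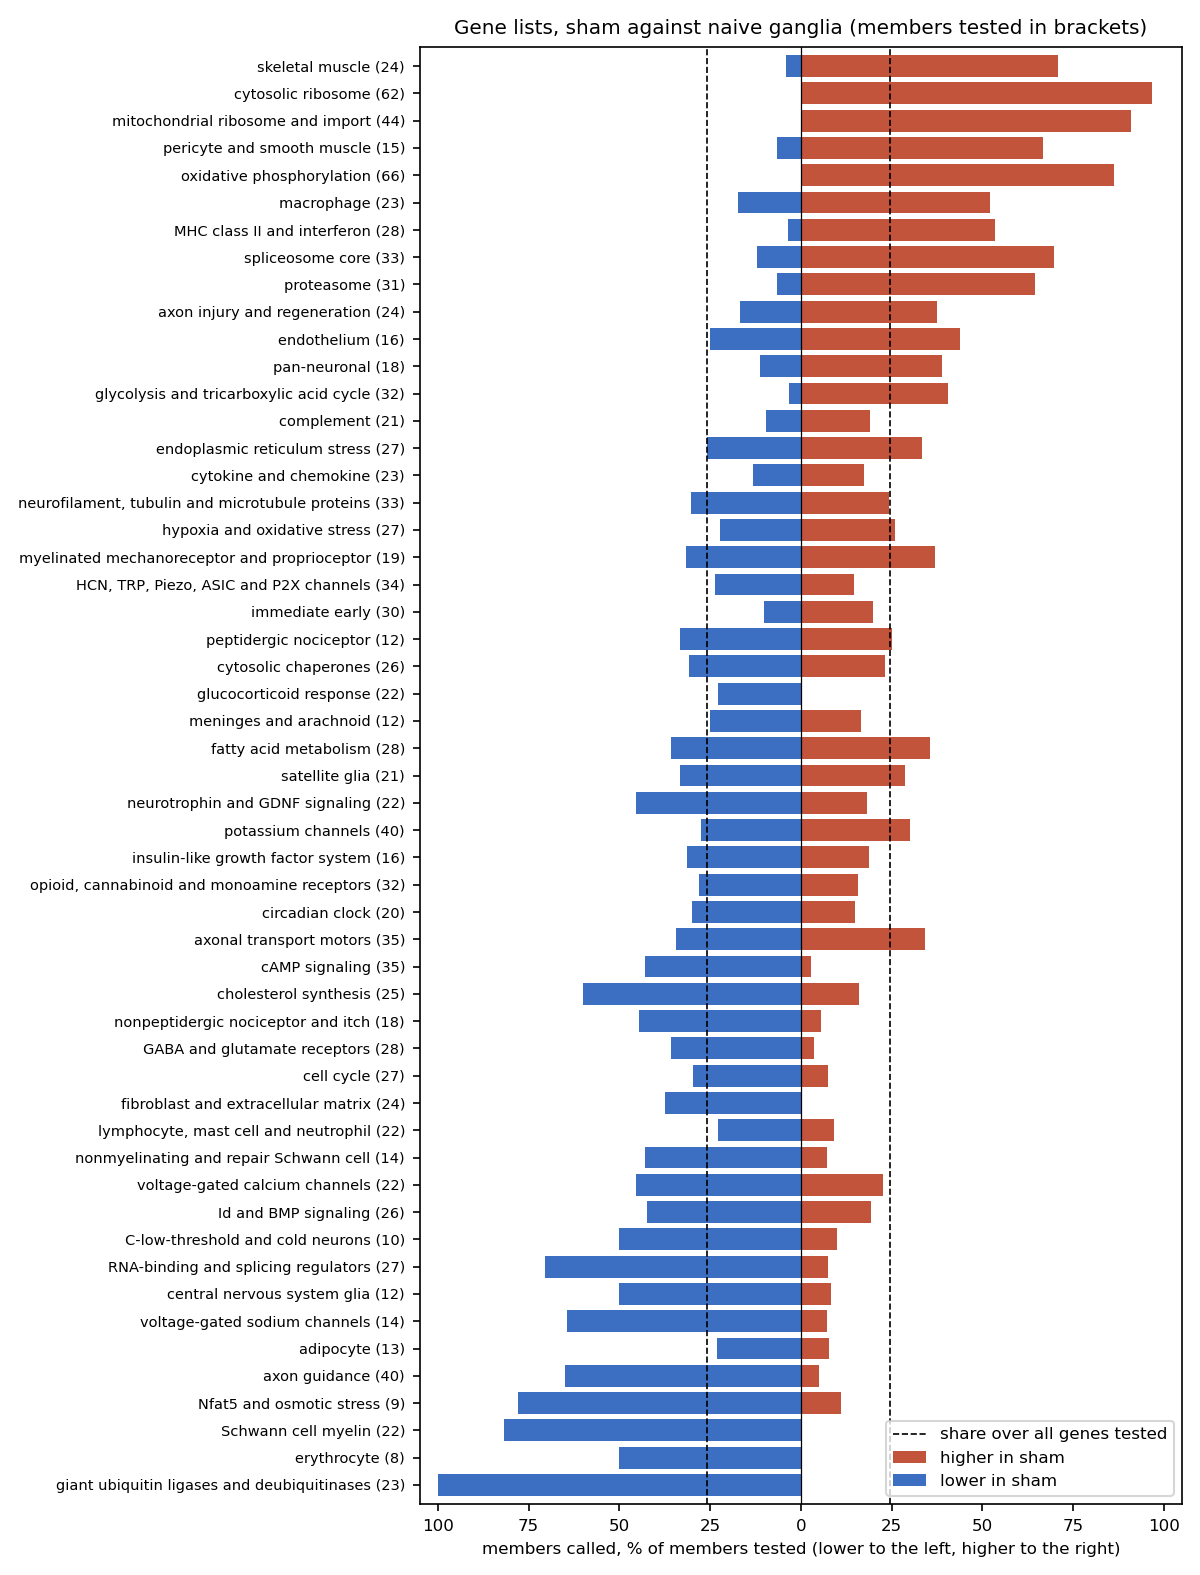
For each of the 53 gene lists with a tested member, bars give the percentage of tested members that were called higher in sham (red, right) or lower (blue, left), at an edgeR adjusted p under 0.05, with lists ordered by median log2 change. Dashed lines mark the 24.7% and 25.9% of all genes tested: ribosome and respiratory chain lists lie far past the right line, and the giant ubiquitin ligases, Schwann cell myelin and axon guidance lists far past the left one.

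Largest changes are given here among called genes with a proper symbol, no overlap between groups and at least 2 CPM in the higher group, so that some larger changes at lower levels and in noncoding genes are not among them. The largest rises included genes of calcium handling, smooth muscle and striated muscle. Stac2, an adaptor of voltage-gated calcium channels, stood at 0.832, 0.882 and 0.707 CPM in naive libraries 1 to 3 and at 2.61, 3.15 and 3.17 in sham libraries 1 to 3 (change 1.87 with SE 0.21, adjusted p = 1.13e-05 by edgeR). Every sham library held more than every naive library, and the SCI libraries held 5.26, 5.44 and 3.82 CPM. The smooth muscle genes Actg2, a gamma actin, and Cnn1, calponin, rose by 1.78 and 1.66 (edgeR adjusted p = 6.81e-06 and 4.47e-06). Mb, myoglobin, rose from 1.99 ± 0.811 to 7.06 ± 1.56 CPM (change 1.80 with SE 0.35, adjusted p = 0.000787 by edgeR), and Tnnt1, slow skeletal troponin T, from 0.658 ± 0.265 to 2.36 ± 1.10 CPM (change 1.77 with SE 0.35, adjusted p = 0.000933 by edgeR). Tnnt1 was spread widely in sham, at 1.43, 3.57 and 2.08 CPM. The others of the 12 largest under these limits were Clip3 (1.57), a microtubule-associated protein, Atp5i (1.47), an ATP synthase subunit, the crystallin gene Cryba4 (1.46), the homeobox gene Hoxd10 (1.43), the chromatin protein gene Hmga1 (1.31), Rpl31 (1.30) of the large ribosomal subunit and Rps19bp1 (1.29).

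The largest falls under the same limits included transcription factors and a matrix protein. Zbtb20, a zinc finger repressor, stood at 14.9, 14.5 and 17.5 CPM in naive and 2.61, 2.86 and 3.97 in sham (change -2.32 with SE 0.16, adjusted p = 5.19e-07 by edgeR). The groups were far apart in all 6 libraries. Nfib, nuclear factor I/B, and Plag1, a zinc finger factor, fell, at -1.81 and -1.90. Vcan, the matrix proteoglycan versican, stood at 18.9, 16.8 and 15.9 CPM in naive and 3.09, 4.23 and 4.96 in sham (change -2.09 with SE 0.17, adjusted p = 1.05e-06 by edgeR), and the lowest naive library lay well above the highest sham library. Srm, spermidine synthase, fell from 3.51 ± 0.227 to 0.691 ± 0.0834 CPM. The others were Vof16 (-2.23), Xkr6 (-2.21), Phip (-1.80), Birc6 (-1.79) and Asb15 (-1.74). The 2 largest of these falls, in Pck1 (-3.80), a gluconeogenic enzyme also made in fat, and Thrsp (-2.57), a lipogenic gene, rested on naive 3. Pck1 stood at 0.398, 0.472 and 7.07 CPM in naive libraries 1 to 3, and Thrsp at 1.01, 1.01 and 5.49. Without naive 3, Thrsp had a log2 change of -1.26 and did not pass (edgeR adjusted p = 0.0803), and Pck1 did not pass the low-count filter.

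By p rather than by size of change, the rises with the smallest values were Lsm4, a core spliceosome protein, Hmga1, Timm13, of mitochondrial protein import, Pvalb, the calcium buffer parvalbumin, Mrpl43, of the mitochondrial ribosome, and Hcfc1r1, a regulator of host cell factor. Lsm4 stood at 47.6, 47.9 and 49.2 CPM in naive and 103, 94.9 and 106 in sham (change 1.07 with SE 0.063, adjusted p = 1.41e-07 by edgeR), and the libraries of each group lay close together. Hmga1 rose from 15.5 ± 1.06 to 38.5 ± 3.503 CPM (change 1.31 with SE 0.082, adjusted p = 2.05e-07 by edgeR) and Hcfc1r1 from 78.8 ± 1.72 to 158 ± 11.8 (change 1.001 with SE 0.068, adjusted p = 3.45e-07 by edgeR). The falls included Nfat5, Usp9x, Igf2r, Herc1 and Birc6. Hmga1 and Birc6 are also among the largest changes above. Igf2r, the receptor that takes up insulin-like growth factor 2, stood at 107, 109 and 105.41 CPM in naive and 44.5, 42.6 and 42.9 in sham (change -1.30 with SE 0.059, adjusted p = 1.49e-08 by edgeR). Its groups lay far apart.

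**Figure D2:**
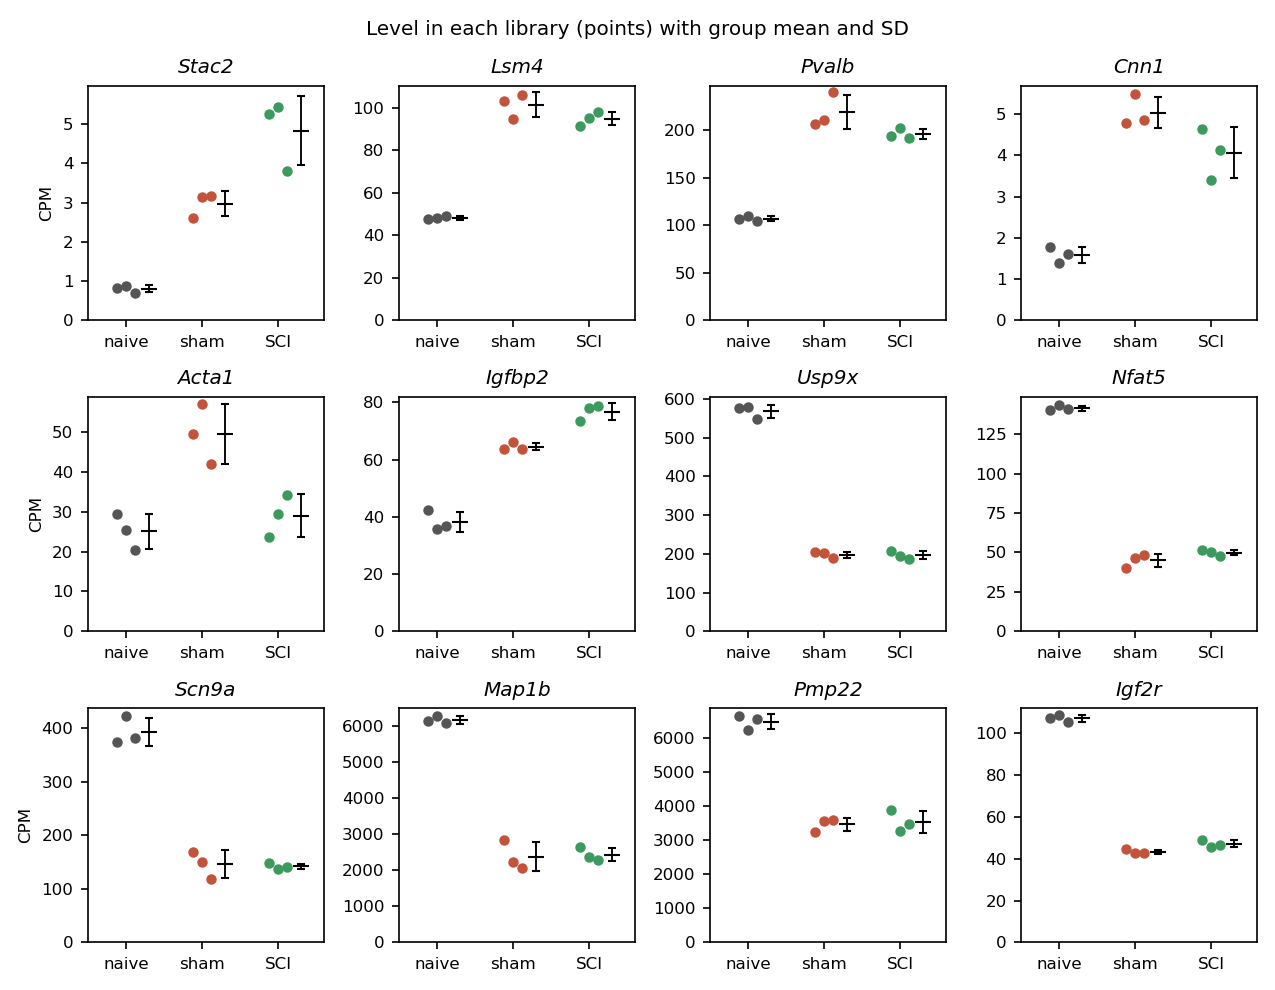
CPM of 12 genes named by the rule for named genes, in each library of the naive (grey), sham (red) and SCI (green) groups, with the group mean and SD as a black bar; each vertical axis starts at 0. In all 12 genes the 3 sham points do not overlap the 3 naive points, as for Usp9x, where naive libraries lie near 568 CPM and sham libraries near 198.

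Nearly all measured proteins of the cytosolic ribosome were higher in sham. Of 62 tested genes, 60 rose, none fell and Rps4x and Rpl28 were not called (median log2 change 0.64). Rpl31, of the large subunit, stood at 53.5, 64.2 and 67.9 CPM in naive and 117, 146 and 195 in sham (change 1.30 with SE 0.15, adjusted p = 1.21e-05 by edgeR), and Rpl13 and Rpl29, also of the large subunit, rose by 0.86 and 0.86. In all 3 genes sham 1 was the lowest sham library and sham 3 the highest, and sham 1 still lay above every naive library. Summed over the list, sham 1 held 15417 CPM, sham 2 18959 and sham 3 24113, against 12460.0 to 12696 in naive. Ribosomal proteins have many near-identical copies in the genome, so the level of a single one is uncertain. In edgeR at an unadjusted p under 0.05, in DESeq2 and in limma-voom, none of the 62 was lower either. Another 7 matched members, among them Rps6 and Rpl8, which every cell uses, are listed at 0 in all libraries.

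Most tested nuclear genes of the mitochondrial ribosome, protein import and respiratory chain also rose. Of 44 tested genes of the mitochondrial ribosome and protein import, 40 rose and none fell (1 was lower at an unadjusted p under 0.05 in edgeR and none with DESeq2 or limma-voom; median 0.52). Mrpl43 stood at 29.1, 33.5 and 31.5 CPM in naive and 63.3, 63.4 and 68.7 in sham (change 1.05 with SE 0.071, adjusted p = 3.42e-07 by edgeR), and Timm13 at 60.3, 55.9 and 58.2 and 115, 111 and 126 CPM (change 1.01 with SE 0.067, adjusted p = 3.12e-07 by edgeR). Both kept their groups clearly apart, as did Mrpl54 (1.01) and Mrpl12 (0.78). Of 66 genes of oxidative phosphorylation, which makes ATP from electron transport, 57 rose and none fell in edgeR, also at an unadjusted p under 0.05, in DESeq2 or in limma-voom (median 0.52). Atp5i stood at 58.2, 71.8 and 70.0 CPM in naive and 150.03, 187 and 218 in sham (change 1.47 with SE 0.12, adjusted p = 1.02e-06 by edgeR). Ndufc1 and Ndufb7, of complex I, rose by 1.19 and 0.78, and Cox6a1, of complex IV, rose from 300.3 ± 11.7 to 586 ± 50.3 CPM. The 9 members not called, singled out after their values were seen, were Ndufs1, Ndufs4, Ndufv1, Ndufa9, Ndufb5, Atp5a1, Uqcrc2, Uqcrfs1 and Sdha, with log2 changes from -0.13 to 0.19. Several of these are the catalytic or core subunits of their complexes. Genes encoded by the mitochondrial genome were not analysed here.

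The promoters of these genes are shown because the members moved together. RefSeq promoters of assembly GRCr8, which cover 250 bases before to 50 after each start, matched 48 of the ribosome genes, 37 of the mitochondrial ribosome and import genes and 58 of the oxidative phosphorylation genes. The letters searched were chosen after promoters had been looked at, so the shares are a description. Ribosomal protein transcripts are known to start in a run of pyrimidines. The letters CTTTC on the gene's own strand lay within 10 bases of the start in 33.3% of 48 ribosome promoters, against 2.22% of all 33469 promoters and 1.72% of 58 for oxidative phosphorylation. In 3 ribosome genes, read 5′ to 3′ with CTTTC near the start in capitals, the 60 bases around it were these.
Rpl13, chr19:68062464-68062523, plus strand: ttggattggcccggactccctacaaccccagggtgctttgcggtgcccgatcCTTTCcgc
Rpl31, chr9:49143061-49143120, plus strand: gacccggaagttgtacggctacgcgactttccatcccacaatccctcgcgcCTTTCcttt
Rpl29, chr8:115947593-115947652, plus strand: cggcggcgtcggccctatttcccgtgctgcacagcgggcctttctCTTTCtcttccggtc
These 3 genes rose by 0.86, 1.30 and 0.86.

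CCGGAAG, the core of ETS family sites, was searched on both strands. It was found in 17 of 48 ribosome promoters (35.4%), 13 of 37 of the mitochondrial ribosome and import (35.1%) and 19 of 58 of oxidative phosphorylation (32.8%). The share was 8.75% over all promoters, 15.0% over those of genes tested, 19.6% over those of genes that rose and 13.8% over those of genes that fell. Examples from the respiratory chain are shown with these letters, or their complement, in capitals.
Atp5i, chr14:1464810-1464869, plus strand: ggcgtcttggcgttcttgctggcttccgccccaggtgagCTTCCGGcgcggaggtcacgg
Ndufb7, chr19:41477282-41477341, minus strand: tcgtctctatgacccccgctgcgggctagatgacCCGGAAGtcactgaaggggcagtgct
Cox5b, chr9:46417787-46417846, plus strand: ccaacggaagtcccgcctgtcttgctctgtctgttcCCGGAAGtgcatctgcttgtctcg
Atp5i, Ndufb7 and Cox5b rose by 1.47, 0.78 and 0.92. AAGATGG, the core letters of YY1 sites, was found on either strand in 16 of 58 oxidative phosphorylation promoters (27.6%) and in 4 of 18 promoters of the giant ubiquitin ligases and deubiquitinases (22.2%), all of which fell, against 7.01% of all. A match is a stretch of letters and not a measured binding site.

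Protein turnover split by gene. The proteasome, which degrades ubiquitin-tagged proteins, had 20 of 31 members higher and 2 lower (median 0.27). Psmb6, a catalytic subunit, stood at 101.34, 109.9 and 102 CPM in naive and 168, 158 and 162 in sham (change 0.64 with SE 0.062, adjusted p = 3.93e-06 by edgeR), while the 2 that fell, Psmd1 (-0.35) and Psmd2 (-0.23), are the large scaffold subunits of the cap. Psmc5, an ATPase of the cap, and Psma7 and Psmb5, of the core, rose by 0.52, 0.53 and 0.50. All 23 giant ubiquitin ligases and deubiquitinases, the enzymes that add ubiquitin or remove it, fell, with no overlap between groups in any of them (median -0.99). Usp9x, a deubiquitinase, stood at 576, 579.9 and 549 CPM in naive and 204, 201 and 189 in sham (change -1.52 with SE 0.068, adjusted p = 1.49e-08 by edgeR). Herc1, a ligase, stood at 229, 249.5 and 225 and 90.4, 82.6 and 83.9 CPM (change -1.45 with SE 0.065, adjusted p = 1.49e-08 by edgeR). Mycbp2, a ligase that controls axon degeneration and synapse growth, stood at 224, 223 and 223 and 89.0, 80.7 and 88.7 CPM (change -1.37 with SE 0.065, adjusted p = 2.13e-08 by edgeR). Birc6, a ligase that blocks cell death, fell the most, from 62.7 ± 3.72 to 18.1 ± 0.889 CPM (change -1.79 with SE 0.085, adjusted p = 2.13e-08 by edgeR), and Cul9 the least (-0.29). This list was written with the strongest falls in these libraries already known, so its count is no independent evidence of direction. The list was set by protein size in part, and gene length was not analysed here.

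Splicing genes divided in the same manner. Of 33 core spliceosome genes 23 rose and 4 fell (median 0.28). The small ring proteins that bind the splicing RNAs were among those that rose, as in Lsm4 above, Lsm7 (0.79) and Snrpd2 (0.73). The 4 that fell were Sf3b1 (-0.77), Sf3b3 (-0.30), Snrnp200 (-0.72) and Prpf8 (-0.80). Prpf8, the large protein at the catalytic centre, stood at 258, 259 and 256 CPM in naive and 142, 135 and 169 in sham (edgeR adjusted p = 4.01e-06), and Sf3b1, which helps find the branch point, fell from 246 ± 3.31 to 144 ± 5.11 CPM. Among 27 RNA-binding and splicing regulators 19 fell and 2 rose (median -0.40). Son, a large protein of nuclear speckles, stood at 345, 339 and 330.4 CPM in naive and 135, 135 and 147 in sham (change -1.28 with SE 0.072, adjusted p = 1.09e-07 by edgeR). Rbm25 fell from 21.8 ± 2.65 to 9.46 ± 0.682 CPM (change -1.20 with SE 0.10, adjusted p = 1.79e-06 by edgeR), and Tra2a, a splicing activator, fell by 0.60.

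Proteins of the axon and its transport system followed no single direction. Of 33 neurofilament, tubulin and microtubule genes 8 rose and 10 fell (median 0.083). Map1b, an abundant microtubule-associated protein of growing axons, stood at 6151, 6284 and 6071 CPM in naive and 2827, 2225 and 2066 in sham (change -1.38 with SE 0.11, adjusted p = 1.24e-06 by edgeR). Ank2, an ankyrin that ties membrane proteins to the cytoskeleton, fell from 648 ± 47.0 to 294 ± 36.3 CPM, and the cytoskeletal linkers Macf1 and Dst fell, at -1.07 and -0.91. The neurofilament genes Nefl, Nefm and Nefh had log2 changes of 0.21, 0.21 and 0.20 and were not called. Among transport motors 12 of 35 rose and 12 fell. Dync1h1, the heavy chain of dynein, which carries cargo to the cell body, stood at 582, 599 and 504 CPM in naive and 274, 208 and 195 in sham (change -1.32 with SE 0.12, adjusted p = 2.72e-06 by edgeR). Its light chain Dynll1 stood at 294, 289 and 284 and 432, 483 and 549 CPM (change 0.75 with SE 0.083, adjusted p = 9.59e-06 by edgeR), and Dctn3, of the dynactin complex that partners it, rose by 0.58. Heavy and light chain thus moved in opposite directions with no overlap in either. Without sham 3, 15 of the 33 cytoskeleton genes rose. Kif1b, a kinesin that carries cargo outward, fell from 1625 ± 63.6 to 970.1 ± 57.2 CPM (change -0.74 with SE 0.075, adjusted p = 4.98e-06 by edgeR).

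Axon guidance genes, which steer growth cones and hold contacts in the adult, were lower on the whole. Of 40 members 26 fell and 2 rose, or 4 without sham 2 (median -0.58). Sema5a, a semaphorin, stood at 319, 306 and 316 CPM in naive and 96.5, 108 and 106 in sham (change -1.60 with SE 0.10, adjusted p = 1.45e-07 by edgeR). Slit2, the ligand of Robo receptors, stood at 94.0, 84.2 and 88.5 and 30.6, 28.9 and 35.9 CPM (change -1.48 with SE 0.094, adjusted p = 2.22e-07 by edgeR), and the adhesion molecule Chl1 at 88.7, 93.3 and 92.1 and 40.2, 42.3 and 33.9 CPM (change -1.24 with SE 0.084, adjusted p = 3.45e-07 by edgeR). None of these 3 genes overlapped between groups. Sema6d fell by 0.96.

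Voltage-gated sodium channels, which fire the action potential, were lower at most pore-forming subunits. Of 14 members 9 fell and 1 rose, or 3 without sham 3 (median -0.54). All 9 that fell were pore-forming alpha subunits or the related Scn7a. Scn9a, the channel Nav1.7 that sets the pain threshold, stood at 374, 422 and 381 CPM in naive and 169, 150.2 and 117 in sham (change -1.43 with SE 0.11, adjusted p = 7.27e-07 by edgeR). Scn11a, or Nav1.9, of nociceptors, stood at 490.1, 541 and 512 and 285, 238 and 235 CPM (change -1.02 with SE 0.091, adjusted p = 2.15e-06 by edgeR), and Scn10a, or Nav1.8, at 628, 683 and 666 and 527, 431 and 409 CPM (change -0.53 with SE 0.095, adjusted p = 0.000425 by edgeR). In all 3 sham 1 was the highest sham library and sham 3 the lowest, and both lay below every naive library. Scn7a, a sodium-sensing channel also made by nonmyelinating Schwann cells, fell from 849 ± 18.4 to 345 ± 9.44 CPM (change -1.30 with SE 0.067, adjusted p = 5.02e-08 by edgeR), and Scn2a fell by 1.07.

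Of 22 calcium channel genes 10 were lower and 5 higher (median -0.29). Cacna1b, the N-type pore at nociceptor terminals, stood at 137, 148 and 143 CPM in naive and 92.9, 76.1 and 61.3 in sham (change -0.89 with SE 0.11, adjusted p = 3.30e-05 by edgeR). Cacna1c, an L-type pore, fell from 47.1 ± 2.09 to 26.6 ± 1.14 CPM (change -0.82 with SE 0.074, adjusted p = 2.31e-06 by edgeR). Stac, like Stac2 an adaptor, rose from 33.6 ± 2.81 to 54.6 ± 5.31 CPM (change 0.70 with SE 0.10, adjusted p = 7.39e-05 by edgeR). Potassium channels, which restore the resting state, had 12 of 40 higher and 11 lower (median -0.074). Kcnd3, of the A-type current, and the sodium-activated Kcnt2 fell, at -0.77 and -0.90, and the channel-interacting Kcnip3 rose from 107 ± 5.28 to 184 ± 19.6 CPM (change 0.78 with SE 0.078, adjusted p = 4.96e-06 by edgeR). Without sham 1, 20 potassium channel genes were lower and 7 higher, and 7 were higher without naive 1 and 6 without naive 3.

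Sensory transduction channels had 8 of 34 members lower and 5 higher, near or below the background (median 0.043). Without sham 3, 11 were higher, and without naive 1, naive 3 or sham 1, 3 were. Piezo2, the channel of touch and body position, stood at 333, 367 and 354 CPM in naive and 216, 181 and 165 in sham (change -0.91 with SE 0.090, adjusted p = 4.53e-06 by edgeR). Ano3, a membrane protein that restrains nociceptor firing, fell from 285 ± 15.8 to 156 ± 29.7 CPM (change -0.87 with SE 0.11, adjusted p = 2.89e-05 by edgeR), and Trpc1 and Trpm7 fell, at -0.75 and -0.70. Trpv1, the heat and capsaicin receptor, had a log2 change of -0.12 and was not called. Of 28 GABA and glutamate receptor genes 10 fell and 1 rose (median -0.22), with the AMPA receptor subunits Gria2 and Gria3 at -0.82 and -0.86 and the GABA-A subunit Gabra2 at -0.73.

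**Figure D3:**
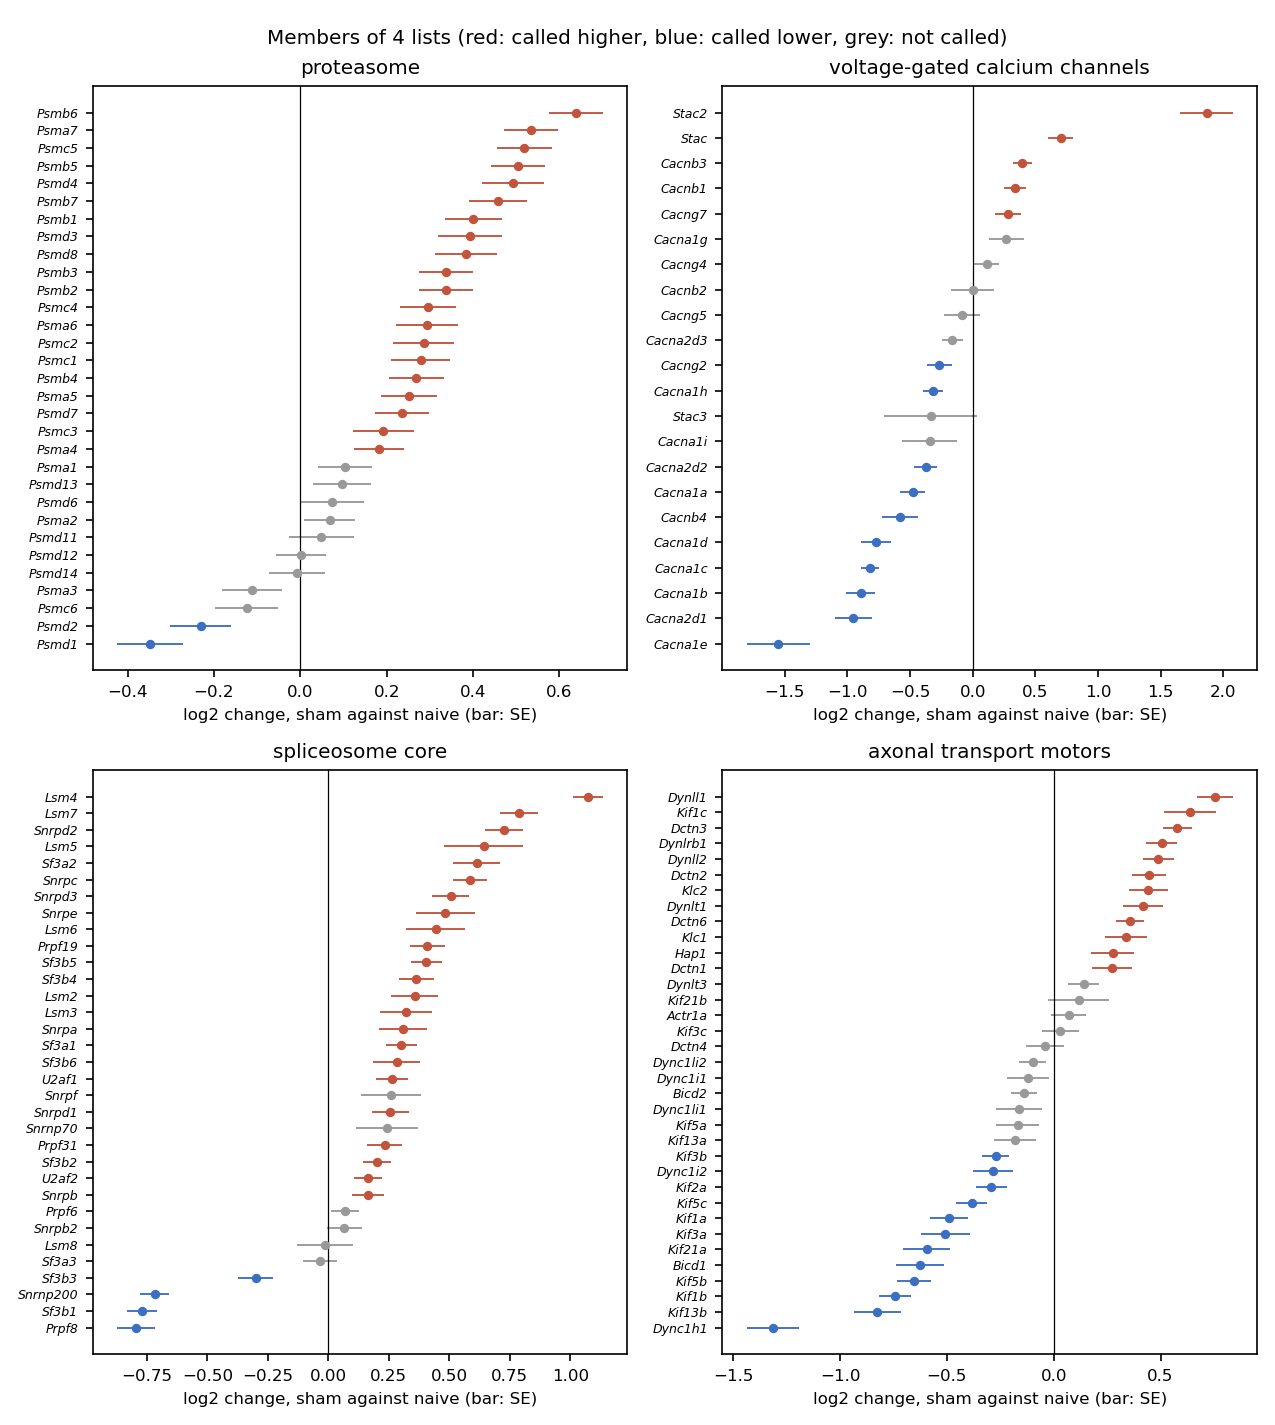
Log2 change of sham against naive for every tested member of 4 lists (horizontal axis, with SE as bar), ordered by value; red marks members called higher, blue those called lower and grey those not called. The lists were picked for display after their values were seen: the proteasome cap subunits Psmd1 and Psmd2 lie to the left of the other proteasome genes, Prpf8, Sf3b1 and Snrnp200 stand apart from the other spliceosome genes, and Dync1h1 and Dynll1 lie at opposite ends of the motors.

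Most markers shared by all neurons rose or were not called. Of 18 pan-neuronal genes 7 rose and 2 fell (median 0.21). Rab3a, of synaptic vesicles, and Gap43, of growth cones, rose from 164 ± 11.1 to 251 ± 32.0 and from 290.2 ± 5.78 to 384 ± 22.8 CPM (0.62 and 0.40). Syt1, the calcium sensor of vesicle release, and the RNA-binding Elavl4 fell, at -0.74 and -0.72. The list depended on sham 1, which held 49789.8 CPM in sum against 39368 in sham 2 and 34491 in sham 3 and 34398 to 35946 in naive. Without sham 3, 12 of the 18 rose, and without sham 1, 4 fell.

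Genes of the neuron classes moved in both directions. Among 19 genes of myelinated mechanoreceptors and proprioceptors 7 rose and 6 fell (median 0.062). Pvalb, the marker of proprioceptors, stood at 107, 109.8 and 104 CPM in naive and 207, 211 and 239.8 in sham (change 1.04 with SE 0.069, adjusted p = 3.34e-07 by edgeR), with every sham library far above every naive one. Pvalb is also made by fast skeletal muscle, whose markers Tnni2 (1.28), Tnnc2 (1.27) and Tnnt3 (0.90) rose while Myh1 (-0.049) was not called, and their part in the rise of Pvalb was not tested. Dfnb31, the cochlear and sensory scaffold whirlin, rose by 0.61, while Maf and Etv1, transcription factors of mechanoreceptors and proprioceptors, fell, at -0.81 and -0.48. Of 12 peptidergic nociceptor genes 3 rose and 4 fell (1 rose without naive 1 or sham 2 and 5 without sham 3, and 2 fell without naive 3). Calca, the precursor of the pain peptide CGRP, stood at 1026, 1062 and 994 CPM in naive and 1306, 1313 and 1113 in sham (change 0.28 with SE 0.089, adjusted p = 0.0197 by edgeR), a narrow separation, and Kit, a growth factor receptor, fell from 76.8 ± 4.10 to 50.1 ± 2.77 CPM. Of 18 nonpeptidergic nociceptor and itch genes 8 fell and 1 rose (median -0.20). The riser (with 2 more without sham 3) was Sst, the peptide somatostatin, at 53.5, 60.8 and 56.3 CPM in naive and 97.0, 85.8 and 92.8 in sham (change 0.69 with SE 0.11, adjusted p = 0.000175 by edgeR), and Plxnc1 and the oncostatin M receptor Osmr fell, at -0.53 and -0.56. Of 10 genes of C-low-threshold and cold neurons 5 fell and 1 rose, and 8 had a negative change (median -0.33). Summed over the list, the level was 721 ± 38.5 CPM in naive and 467 ± 65.5 in sham. The riser, Th, tyrosine hydroxylase, went against the list, from 1.16 ± 0.241 to 1.93 ± 0.0722 CPM (change 0.74 with SE 0.20, adjusted p = 0.00641 by edgeR).

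Genes known to answer axon injury moved both ways. Of 24 tested, 9 rose and 4 fell (median 0.25), and 5 rose without naive 3. Gal, the neuropeptide galanin, rose from 5.99 ± 0.393 to 9.33 ± 1.39 CPM (change 0.63 with SE 0.13, adjusted p = 0.00129 by edgeR) and Stmn4, a microtubule regulator, from 20.1 ± 1.34 to 29.3 ± 2.40 (change 0.54 with SE 0.083, adjusted p = 0.000134 by edgeR). Klf6, a growth-promoting transcription factor, stood at 39.5, 42.5 and 35.9 CPM in naive and 20.1, 21.7 and 16.7 in sham (change -1.01 with SE 0.10, adjusted p = 5.36e-06 by edgeR), and Lifr, the receptor of leukemia inhibitory factor, and Flrt3 fell, at -0.99 and -0.94. Atf3, the usual marker of axotomized neurons, stood at 15.1 ± 0.315 CPM in naive and 18.7 ± 3.85 in sham, and Jun at 113 ± 6.00 and 118 ± 2.27, neither called. Npy, another injury-induced peptide, is listed at 0 in all 9 libraries. Of 30 immediate early genes 6 rose and 3 fell, below the background in each direction; 3 rose without naive 2 or naive 3, and 6 fell without sham 3. Gadd45g rose by 0.71, and Egr2 and Nr4a2 fell, at -0.85 and -0.75. Egr2 is also a member of the Schwann cell myelin list.

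Genes of Schwann cell myelin were lower in sham. Of 22 members 18 fell and none rose in edgeR, also at an unadjusted p under 0.05, in DESeq2 or in limma-voom (median -0.68). Pmp22, a dosage-sensitive protein of compact myelin, stood at 6664, 6238 and 6574 CPM in naive and 3254, 3569.8 and 3586 in sham (change -0.90 with SE 0.092, adjusted p = 5.68e-06 by edgeR). Ugt8, which makes the myelin lipid galactosylceramide, stood at 424, 388 and 401 and 124, 155 and 149 CPM (change -1.51 with SE 0.10, adjusted p = 3.45e-07 by edgeR). Fa2h, which hydroxylates myelin lipids, and Gldn, gliomedin of the node, fell, at -0.80 and -0.79, with no overlap. Mbp (-0.13), another protein of compact myelin, was not called. Summed over the list, naive libraries held 33746 to 35556 CPM and sham libraries 19636 to 24538. Among 14 genes of nonmyelinating and repair Schwann cells 6 fell and 1 rose. The riser, Igfbp2, a binding protein of insulin-like growth factors, stood at 42.3, 35.8 and 36.8 CPM in naive and 63.7, 66.1 and 63.8 in sham (change 0.75 with SE 0.071, adjusted p = 3.29e-06 by edgeR), and Ncam1 and Cdh2, adhesion molecules, fell, at -0.42 and -0.46.

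Satellite glia genes were mixed, with 6 of 21 higher (3 without naive 1) and 7 lower (median -0.032). Apoe, the lipid carrier, stood at 3333, 3407 and 3429.6 CPM in naive and 6312, 6238 and 8288 in sham (change 1.03 with SE 0.12, adjusted p = 1.24e-05 by edgeR), and Fabp7, a fatty acid binding protein, at 19.7, 17.6 and 21.1 and 38.1, 47.4 and 47.4 CPM (change 1.18 with SE 0.13, adjusted p = 8.24e-06 by edgeR). Apoe is also made by macrophages. Cdh19, a cadherin of the Schwann lineage, fell from 218 ± 6.67 to 112 ± 11.04 CPM (change -0.97 with SE 0.074, adjusted p = 7.51e-07 by edgeR). Among 12 markers of central nervous system glia 6 fell and 1 rose, and Olig2, the defining oligodendrocyte factor, was at or near 0 and not tested. Gfap and Aspa fell, at -0.68 and -0.71, and Gfap is also a member of the satellite glia and nonmyelinating Schwann cell lists.

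Lipid synthesis, much of it glial in the ganglion, was lower at several enzymes. Of 25 cholesterol synthesis genes 15 fell and 4 rose (median -0.20). Hmgcs1, an early enzyme of the pathway, stood at 1367, 1365 and 1334 CPM in naive and 836, 926 and 853 in sham (change -0.64 with SE 0.073, adjusted p = 1.41e-05 by edgeR), with no overlap. Hsd17b7, a late enzyme, fell by 0.67. The 4 that rose were Pmvk (0.63), Mvk (0.50), Mvd (0.39) and Fdps (0.30). These act from mevalonate onward, while Idi1, the enzyme between Mvd and Fdps, fell (-0.63). Promoters were in the table for 17 of the genes, and 14 of these held CCAAT on either strand (82.4%), against 37.5% of all promoters. Those of 2 genes that fell are shown, with the complement of CCAAT in capitals.
Hmgcs1, chr2:53382143-53382202, plus strand: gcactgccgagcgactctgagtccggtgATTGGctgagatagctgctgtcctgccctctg
Hsd17b7, chr13:84722748-84722807, minus strand: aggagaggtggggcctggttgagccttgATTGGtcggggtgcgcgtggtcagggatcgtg
Of 28 fatty acid genes 10 rose and 10 fell. Fasn, fatty acid synthase, stood at 619, 609 and 593 CPM in naive and 349.7, 302 and 347 in sham (change -0.87 with SE 0.073, adjusted p = 1.39e-06 by edgeR), and Acaca, the step before it, fell by 0.69. Fabp5, an epidermal-type fatty acid binding protein of neurons and glia, rose from 223 ± 6.57 to 444 ± 35.0 CPM (change 0.99 with SE 0.075, adjusted p = 7.09e-07 by edgeR).

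**Figure D4:**
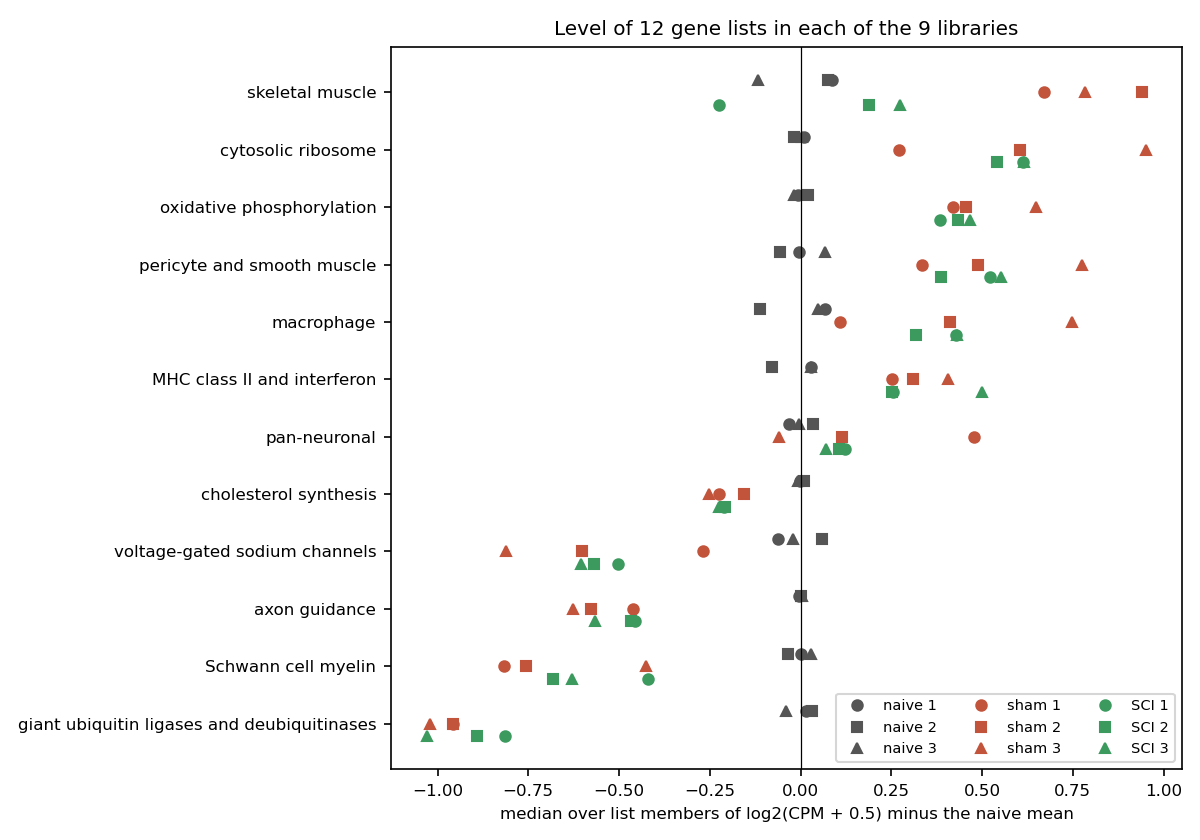
Median over the tested members of 12 lists (rows) of log2(CPM + 0.5) minus the naive mean, for each naive (grey), sham (red) and SCI (green) library; circles, squares and triangles are libraries 1, 2 and 3. Naive libraries lie near 0 in every row, and sham 1 and sham 3 take opposite ends of the sham range for pan-neuronal, sodium channel, macrophage and cytosolic ribosome genes.

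More genes of the macrophage list and of the MHC class II and interferon list rose than fell. Of 23 macrophage genes 12 rose and 4 fell (median 0.43). Aif1, the microglia and macrophage protein Iba1, stood at 10.2, 9.38 and 9.70 CPM in naive and 13.8, 17.7 and 22.9 in sham (change 0.89 with SE 0.15, adjusted p = 0.000235 by edgeR), and Tyrobp, an adaptor of activating receptors, rose by 0.80. C1qa and C1qc, which macrophages make to start complement, rose from 28.3 ± 2.51 to 45.9 ± 11.02 and from 29.3 ± 2.78 to 51.0 ± 12.1 CPM. The 4 that fell were Fcgr2b (-0.95), Cd163 (-0.59), Ptprc (-0.45) and Lyve1 (-0.35), so the list did not move as a whole, though 2 fell without naive 1 or without sham 1. Of these, Cd163 and Lyve1 mark resident perivascular macrophages. Summed macrophage markers ran from 488 to 584 CPM in naive and from 548 in sham 1 to 878 in sham 3, so that sham 1 lay within the naive range. Of 28 MHC class II and interferon genes 15 rose and 1 fell, or 3 without sham 1 (median 0.37). Cd74, the invariant chain that loads class II molecules, stood at 207, 152 and 185 CPM in naive and 261, 291 and 339 in sham (change 0.71 with SE 0.11, adjusted p = 0.000175 by edgeR). Ifi27, an interferon-induced gene, stood at 369, 396 and 395 and 593, 579 and 573 CPM (change 0.59 with SE 0.075, adjusted p = 3.32e-05 by edgeR), with tight sham values, and Isg15 and the immunoproteasome subunit Psmb9 rose by 0.84 and 0.78.

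Other immune lists lay at or under the background. Of 21 complement genes 4 rose and 2 fell, or 9 rose without sham 1 and 5 fell without sham 3, and Cd59, which protects cells from complement, rose from 620.0 ± 13.1 to 887 ± 44.4 CPM (change 0.52 with SE 0.069, adjusted p = 4.93e-05 by edgeR). Of 23 cytokine and chemokine genes 4 rose (1 without naive 2, 2 without sham 3) and 3 fell, among them Tgfb2 (-0.69) and the shared receptor Il6st (-0.50). Of 22 lymphocyte, mast cell and neutrophil genes 2 rose and 5 fell. Cd4 rose from 18.8 ± 2.74 to 32.9 ± 7.51 CPM, and the mast cell protease Cma1 fell from 1.77 ± 0.0520 to 0.905 ± 0.398. Without sham 1 or naive 1, 1 of these genes fell, and 2 fell without naive 3 and 3 without sham 3.

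Genes of striated and smooth muscle were higher in sham. Of 24 skeletal muscle genes 17 rose and 1 fell (median 0.92). Acta1, skeletal actin, stood at 29.3, 25.4 and 20.4 CPM in naive and 49.4, 56.9 and 42.0 in sham (change 0.98 with SE 0.15, adjusted p = 0.000129 by edgeR), and Tpm2, a tropomyosin, at 27.4, 28.1 and 29.5 and 45.7, 55.8 and 62.0 CPM (change 0.94 with SE 0.10, adjusted p = 5.38e-06 by edgeR). Tnnc1, slow troponin C, rose by 1.01. Neb, the giant thin filament protein nebulin, fell (-0.64), and the myosin heavy chains Myh1 (-0.049) and Myh7 (0.30) were not called. Summed over the list, naive libraries held 151 to 191 CPM and sham libraries 267 to 297. These are muscle markers in ganglion RNA, and whether muscle tissue was present was not tested. Of 15 pericyte and smooth muscle genes 10 rose and 1 fell (median 0.52). Cnn1 stood at 1.77, 1.39 and 1.61 CPM in naive and 4.78, 5.47 and 4.86 in sham (change 1.66 with SE 0.16, adjusted p = 4.47e-06 by edgeR), and Myl9, smooth muscle myosin light chain, at 28.4, 25.9 and 29.3 and 53.2, 60.3 and 78.4 CPM (change 1.20 with SE 0.12, adjusted p = 6.25e-06 by edgeR). The faller was Abcc9 (-0.81), a potassium channel partner that marks pericytes.

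Endothelial genes rose in 7 and fell in 4 of 16. Plvap, of fenestrated vessels, rose from 9.64 ± 0.986 to 19.99 ± 2.88 CPM (change 1.05 with SE 0.11, adjusted p = 7.39e-06 by edgeR), and Vwf, von Willebrand factor, fell from 67.5 ± 4.77 to 38.9 ± 6.75 (change -0.79 with SE 0.12, adjusted p = 9.49e-05 by edgeR). Cldn5, the defining tight junction gene of barrier endothelium, is listed at 0 in all libraries. Of 24 fibroblast and matrix genes 9 fell and none rose in edgeR (1 at an unadjusted p under 0.05, 1 with DESeq2, none with limma-voom; median -0.25). Fbn1, fibrillin, stood at 165, 113 and 129.5 CPM in naive and 42.0, 52.1 and 65.2 in sham (change -1.36 with SE 0.16, adjusted p = 1.48e-05 by edgeR), and Col1a1, collagen I, at 1367, 1226 and 1365 and 547, 668 and 891 CPM (change -0.91 with SE 0.14, adjusted p = 0.000172 by edgeR). Both were lowest in sham 1. Without sham 1, 4 members of the list rose. Of 12 meninges genes 2 rose and 3 fell, or 5 and 1 without sham 1 (1 fell also without naive 1 or naive 3), and Ptgds, prostaglandin D synthase, had a log2 change of 0.47 with overlapping groups. Of 8 erythrocyte genes 4 fell (2 without naive 1, 7 without sham 2) and none rose with any tool, with Hba1 at 554, 419 and 405 CPM in naive and 216, 299 and 269.6 in sham (change -0.81 with SE 0.23, adjusted p = 0.0106 by edgeR). Residual blood in the tissue was not measured. Of 13 adipocyte genes 3 fell and 1 rose. Lpl, lipoprotein lipase, which Schwann cells also make, fell from 30.4 ± 2.72 to 9.66 ± 1.33 CPM (change -1.65 with SE 0.14, adjusted p = 1.19e-06 by edgeR), Dgat2 fell by 0.61, and Adipoq, adiponectin, rose (0.78) with overlapping groups. The adipocyte median was -0.57, but 0.11 without naive 3.

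Genes of the osmotic stress response were mostly lower, and the endoplasmic reticulum stress, chaperone and oxidative stress lists each held rises and falls. In these 3 lists 33.3%, 23.1% and 25.9% of members rose and 25.9%, 30.8% and 22.2% fell. Over all genes 24.7% rose and 25.9% fell, so these lists lay not far from the background. Nfat5, the transcription factor of the osmotic stress response, stood at 140.5, 143 and 141 CPM in naive and 40.4, 46.2 and 48.6 in sham (change -1.65 with SE 0.071, adjusted p = 1.37e-08 by edgeR). Of 9 tested genes of that response 7 fell and 1 rose. Slc12a2, the importer NKCC1 that sets neuronal chloride, stood at 293, 274 and 278 and 105.06, 119 and 116 CPM (change -1.31 with SE 0.067, adjusted p = 4.62e-08 by edgeR), and Slc38a2, an amino acid importer, fell by 0.78. The groups lay far apart in both Nfat5 and Slc12a2. Of 27 endoplasmic reticulum stress genes 9 rose and 7 fell (4 without any 1 naive library or without sham 3), with Ddit3 (CHOP) from 26.9 ± 2.04 to 44.2 ± 3.504 CPM (change 0.71 with SE 0.078, adjusted p = 1.05e-05 by edgeR), Ppp1r15a (GADD34) higher by 0.75, Manf higher by 0.50 and the chaperone Canx lower (-0.52). Of 26 cytosolic chaperones 6 rose (11 without sham 3) and 8 fell, with Hspb1, which supports injured sensory neurons, at 0.59 and Hspa4 at -0.47. Of 27 hypoxia and oxidative stress genes 7 rose and 6 fell. Sod1, superoxide dismutase, rose from 238 ± 7.39 to 414 ± 20.2 CPM (change 0.80 with SE 0.066, adjusted p = 1.27e-06 by edgeR), Prdx5 by 0.69, and Slc7a11, the cystine importer, fell by 1.05.

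No gene of the glucocorticoid response rose in edgeR (2 at an unadjusted p under 0.05, none with DESeq2 or limma-voom). Of 22 genes 5 fell (22.7%, below the 25.9% over all genes), among them Klf9 (-0.67), Sgk1 (-0.58) and Nedd9 (-0.59). The median was -0.0045, with 11 members above 0 and 11 below. Without sham 1, 4 rose. Of 20 clock genes 3 rose (1 without naive 1, naive 2 or sham 2) and 6 fell. Clock, the core activator, stood at 61.7, 60.9 and 61.9 CPM in naive and 31.0, 36.6 and 35.7 in sham (change -0.84 with SE 0.083, adjusted p = 4.32e-06 by edgeR), Nr1d2 and Per3 fell, at -0.60 and -0.58, and Dbp, a strongly cycling output gene, stood at 60.9 ± 8.67 CPM in naive and 73.4 ± 39.7 in sham and was not called. The time of day of collection is not in the labels. Of 32 genes of glycolysis and the tricarboxylic acid cycle 13 rose and 1 fell, or 3 without sham 1 (median 0.17), with Aldoc, an aldolase, from 515 ± 12.9 to 742 ± 54.5 CPM and Idh3g and Suclg1, of the cycle, higher by 0.41 and 0.41. Of 27 cell cycle genes 8 fell and 2 rose, and Mki67, the proliferation marker Ki-67, fell from 8.31 ± 0.686 to 3.77 ± 1.08 CPM (change -1.17 with SE 0.18, adjusted p = 0.000129 by edgeR).

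Genes of growth factor pathways moved in both directions. Of 16 genes of the insulin-like growth factor system 5 fell (31.25%) and 3 rose (18.75%). The shares over all genes were 25.9% and 24.7%, and 8 members were not called. The 5 were Igf2r, Igf1 (-1.20), the insulin receptor Insr (-0.72), Igf1r (-0.61) and Irs2 (-0.53), and the 3 were the binding proteins Igfbp2, Igfbp4 (0.74) and Igfbp7 (0.63). Igf1 stood at 27.7, 20.6 and 23.6 CPM in naive and 7.97, 12.2 and 11.5 in sham (edgeR adjusted p = 8.36e-05). Of 22 neurotrophin and GDNF signaling genes 10 fell and 4 rose (2 without any 1 naive library), with the adaptors Frs2 (-0.80) and Kidins220 (-0.78) and the Schwann cell factor Cntf (-0.81) lower. Of 26 Id and BMP signaling genes 11 fell and 5 rose (3 without naive 2). The receptors Bmpr2, Tgfbr1 and Acvr2a fell, at -0.87, -0.91 and -0.69, and Tgfbr3, a coreceptor, stood at 185, 180.2 and 194 CPM in naive and 78.8, 93.7 and 108 in sham (change -0.997 with SE 0.092, adjusted p = 2.70e-06 by edgeR). The target genes Id1, Id2 and Id3 rose by 0.53, 0.37 and 0.67, singled out after their values were seen.

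In cAMP signaling 15 of 35 genes fell and 1 rose (median -0.17), and 9 fell without naive 2, while 3 rose without sham 2 and 4 without sham 3. Akap11, which anchors protein kinase A, stood at 256, 253 and 232 CPM in naive and 111, 113 and 107 in sham (change -1.16 with SE 0.069, adjusted p = 1.41e-07 by edgeR). The anchors Akap6 and Akap13 and the coactivator Crebbp fell, at -0.86, -0.78 and -0.75, while the kinase subunit Prkaca rose (0.21). Of 32 opioid, cannabinoid and monoamine receptor genes 9 fell and 5 rose, and 5 fell without naive 2. Those that rose were 3 without naive 1, naive 3 or sham 1 and 8 without sham 3. Cnr1, the cannabinoid receptor CB1, stood at 45.1, 43.0 and 43.9 CPM in naive and 24.5, 20.9 and 19.1 in sham (change -1.02 with SE 0.085, adjusted p = 1.33e-06 by edgeR), Chrna7, a nicotinic receptor, fell by 1.14 and Oprk1, the kappa opioid receptor, fell by 0.72. Penk, the precursor of the enkephalin peptides, rose from 6.47 ± 0.743 to 11.1 ± 1.90 CPM (change 0.80 with SE 0.13, adjusted p = 0.000237 by edgeR).

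SCI libraries lay near the sham libraries in some of the genes with the strongest differences between sham and naive. Usp9x stood at 208, 194 and 187 CPM in SCI libraries 1 to 3, Nfat5 at 51.3, 50.2 and 48.0, Lsm4 at 91.5, 95.2 and 97.8 and Pmp22 at 3907, 3269.7 and 3473, each near its sham level. Both operated groups are read against the same 3 naive libraries, so these values are no second test. Skeletal muscle genes did not lie near sham in their sum. Over the list, SCI libraries held 164 to 214 CPM, overlapping the naive range and below every sham library. No single gene of the list was called between SCI and sham. The same fit called 0 of all 16627 genes tested between SCI and sham, so this is no trait of the muscle list. Acta1 stood at 23.6, 29.3 and 34.2 CPM in SCI.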

How the data were processed

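RNA was measured in 9 libraries of rat DRG, 3 each of naive, sham and SCI. Per the labels' protocols, total RNA came from the RNeasy Mini Kit and the paired-end libraries from TruSeq RNA Sample Prep V2, which keeps no strand, so reads of overlapping antisense genes are not separable. The submitters' processing notes name TopHat2 and HTSeq beside FastQC, Trimmomatic and DESeq2. For versions, genome build and gene annotation, each is not given in the sources used here. What the authors deposited are raw counts per gene in whole numbers. Symbols are those of the table, and 348 symbols are shared by 723 identifiers. At 1 CPM a gene rests on 16.7 to 32.1 counts per library.

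All 9 libraries entered 1 edgeR fit (version 4.0.16, R 4.3.3; glmQLFit and glmQLFTest, TMM scaling, filterByExpr by group, 6 residual degrees of freedom), with the contrast sham minus naive, Benjamini-Hochberg adjustment over 16627 genes and calls at an adjusted p under 0.05. CPM use TMM-scaled library sizes. Of 1379 symbols in 54 lists, 1318 matched a row and 1264 were tested. The members and lists were chosen with earlier results of these data known. Lists are described by counts and medians, with no test of the list. Genes were named by rule: among called genes without overlap, with a proper symbol and at least 2 CPM in the higher group, the 12 largest rises and falls and the 6 smallest p each way, and per list up to 4 members of smallest p, 219 in all. Several of these are not reported here, among them Hspa8, whose symbol may not mark its main copy. Other genes named were chosen after their values were seen. Promoters come from RefSeq, assembly GRCr8. Alternatives were other scalings, filters, depths, spreads and tools (DESeq2 1.42.0, limma-voom 3.58.1) and leaving out libraries.

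On counts simulated for this contrast with 200 changed genes among 16627, over 5 runs, the test found 18.4% of genes changed 1.25-fold, 59.2% at 1.5-fold, 83.2% at 2-fold and 97.6% at 4-fold, with 8.4 false calls per run. The simulation gave all groups 1 spread, which the sham libraries exceed. It also changed 200 genes, where 8407 were called in these data, and the cutoff set by the adjustment depends on that number. The shares found and the false calls therefore do not carry over to these libraries.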

Additional observations from a re-analysis of the deposited data

How the results depend on the processing

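The count of 8407 genes called between sham and naive stayed within 1.5 times under each alternative except the test against a fold of 1.5, which called 995 genes, 224 higher and 771 lower. The other counts ran from 6837, without sham 1 and sham 3 together (an alternative chosen after seeing the data, in which the lone sham library is assumed to vary like the other groups), to 9584 at an adjusted p under 0.1. DESeq2 called 8045 genes, limma-voom 8400, the fit of the 6 libraries alone 7671 and libraries thinned to the shallowest total 7586. Leaving out 1 library at a time gave 7191 to 8630 calls, 3415 to 4221 higher and 3692 to 4409 lower. Same-numbered naive and sham libraries had deviations from their group means that correlated at -0.0743, -0.0150 and 0.124, so the numbers were not taken to pair animals. With the replicate number as a block, 8153 genes were called, 3951 higher and 4202 lower. None of the 219 genes named by rule changed direction under any alternative in which it could be compared. With the strict low-count filter 217 of them could be. The number was 218 without naive 2, without naive 3, with thinned libraries and with DESeq2. Against a fold of 1.5, 117 of them no longer passed, and without sham 1 and sham 3 together 16 did not. The median change of the adipocyte list changed sign without naive 3 (0.11) and with the strict low-count filter (0.0083), and that of the lymphocyte, mast cell and neutrophil list without sham 1 and sham 3 together (0.18); the causes were not tested. Of the other lists, those whose median changed sign under an alternative all lay within 0.13 of 0. An alternative that sets changes against protein length was planned and not run, since no protein table was used. Depth limits genes near 1 CPM, where counting error adds to the spread.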

Other observations

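Homeobox genes of the posterior body axis were higher in sham. The families in this section were chosen after the data were seen and are described without a test of the family. Of 10 tested Hox genes of paralog groups 8 to 13, 8 rose and 1 fell (median log2 change 0.67), against 2 and 1 of 17 in groups 1 to 7. Hoxd11 stood at 0.253, 0.913 and 0.514 CPM in naive and 2.90, 2.32 and 0.595 in sham (change 1.79 with SE 0.48, adjusted p = 0.00755 by edgeR), Hoxd10 at 1.05, 2.30 and 1.99 and 6.02, 6.13 and 2.33 CPM (change 1.43 with SE 0.33, adjusted p = 0.00261 by edgeR) and Hoxa11 at 0.290, 0.157 and 0.0964 and 0.441, 0.595 and 0.397 CPM (change 1.38 with SE 0.40, adjusted p = 0.0115 by edgeR). Sham 3 was the lowest sham library in all 3 genes and lay within the naive range in Hoxd11, and Hoxa11 stood under 1 CPM in every library. The naive libraries alone would not have passed the low-count filter in Hoxd11 or Hoxa11. Both were therefore tested only through the operated libraries, and their rises are no independent support for the family. Hoxc10 rose by 0.73, Hoxb8 by 0.68, Hoxd9 by 0.65 and Hoxc9 by 0.54, while Hoxc8 fell (-0.42). Hox genes keep the positional identity of the spinal level from which a ganglion comes. All groups are labelled with the same range of levels, and the share of each level in a library is not in the labels.

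Chromatin genes split by kind. Of 16 histone rows 7 rose, and Hist1h2bd stood at 0.0362, 0.126 and 0.129 CPM in naive and 0.478, 0.476 and 0.496 in sham (change 2.23 with SE 0.41, adjusted p = 0.000583 by edgeR). Hist1h2bd stood under 1 CPM in every naive and sham library and so rests on few counts. Its naive libraries alone would not have passed the low-count filter. It was therefore tested only through the operated libraries, and its rise is no independent support for the family. Of 47 histone methyltransferases, demethylases and chromatin remodelers 29 fell and 4 rose (median -0.35). Kmt2c, a very large methyltransferase of enhancers, stood at 7.93, 8.69 and 8.83 CPM in naive and 2.42, 3.33 and 3.22 in sham (change -1.52 with SE 0.15, adjusted p = 3.90e-06 by edgeR). In RNA polymerases, 14 of 25 subunit rows rose and 7 fell. The largest subunit of polymerase II, Polr2a, fell from 156 ± 11.7 to 92.9 ± 11.9 CPM (change -0.75 with SE 0.086, adjusted p = 1.45e-05 by edgeR), and the small subunits Polr2e and Polr2j rose by 0.93 and 0.81. Nucleoporins, which build the nuclear pore, had 12 of 19 lower and 1 higher, with Nup153 at -1.02 and Nup62 at 0.30.

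Outside the nucleus, 20 of 41 collagens fell and 3 rose, 18 of 42 ABC transporters fell and 3 rose, with the cholesterol exporter Abca1 at -1.16, and 7 of 14 S100 rows rose, with S100a6 from 428 ± 28.3 to 745 ± 191 CPM. Of 1455 noncoding genes tested 439 fell (30.2%) and 152 rose (10.4%), with a median of -0.21, against 25.5% and 26.0% of 15172 protein-coding genes.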
